A study of Mus musculus with 12 samples.

Results

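Type I interferon-stimulated genes are the genes that cells switch on when interferon alpha or beta binds its receptor. A list of 40 such genes was followed in mouse lungs 5 days after bleomycin or PBS, and a gene was taken as measured where a transcript cluster of the array carried its symbol and no other. By this rule 38 of the 40 genes were measured, out of 23410 clusters with a gene symbol and 35556 clusters in all, and each of the 38 had a single cluster. The only cluster of Isg15 is shared with another gene and Ifi44 had no cluster that carried its symbol alone, so both are not analysed here. The question was how far bleomycin induces these genes, and whether Fra-1, a Fos-family subunit of the transcription factor AP-1, changes their level.

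The arrays were Affymetrix MoGene 1.0 ST, 1 per mouse, on left lung RNA of 12 mice in 4 groups of 3. KOT mice were Fra-1-/- (Fra-1 KO) and received 0.075 U of bleomycin, a DNA-damaging drug that injures the lung, in 30 µL given into the trachea. WTT mice were Fra-1+/+ (wild type) and received the same dose, while KOC (Fra-1-/-) and WTC (Fra-1+/+) mice received PBS. Per the study's methods, mice of both genotypes carried the floxed Fra-1 allele, and Fra-1-/- mice also carried Meox2-Cre, which deletes the gene in the whole embryo and not in a single cell type. All mice were of mixed background (C57/129S), and were labelled as females of 2 months. The values are log2 expression after the robust multi-array average (RMA), so a difference of 1 is a doubling, and each mouse is named by its group and animal number.

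Array medians lay between 7.14 and 7.22, and 6 markers of alveolar type 2 cells averaged between 11.82 and 12.69 in every mouse, as befits lung. On all 12 arrays labelled female, Xist, the RNA of the silenced X chromosome, lay between 4.47 and 4.94 and the Y-linked genes Eif2s3y, Kdm5d and Uty between 7.66 and 8.93, which goes against the sex label. Fosl1, which encodes Fra-1, lay between 7.28 and 7.33 in KOT, between 7.81 and 8.32 in WTT, between 6.26 and 6.68 in KOC and between 6.37 and 6.86 in WTC mice. Where its probes sit relative to the deleted part is not given in the sources used here, so these values do not check the genotype labels. All Fra-1-/- mice have animal numbers of 81 or less, and among Fra-1+/+ mice only WTC 76 does, so genotype and the range of animal numbers are set apart by this mouse alone. One library stood apart in the genes described here: KOT 80 was the lowest KOT mouse for 38 of 38 genes. Counts of calls and medians of fold changes that rest on it are given with and without it.

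Type I interferons bind a receptor of the chains Ifnar1 and Ifnar2, whose kinases Jak1 and Tyk2 phosphorylate Stat2. Stat2 and Irf9 are subunits of the complex ISGF3, which binds the interferon-stimulated response element, a repeat of the letters GAAA, in the promoters of its target genes. The targets sense viral nucleic acid, degrade it, block viral translation, assembly or release, or feed back on the pathway, and Irf7 among them drives further interferon alpha genes. Interferons of type III act through the same complex and interferon gamma induces many of the same genes, so the list does not tell which interferon acted.

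The response element is shown here in the promoters of the genes whose levels are described below, because it is the sequence these genes are known to share. Promoters of 300 bases, 250 before and 50 after the start of the gene, came from RefSeq (build GRCm38.p6) and were found for 28 of the 38 genes. The pattern GAAA, any 2 bases and GAAA again, read on either strand (on the opposite strand TTTC, any 2 bases and TTTC), was in 10 of these 28 (35.7%), counting a gene if any of its promoters held it, against 3.99% of all 27025 genes in the table. The 10 were Ifih1, Ddx60, Eif2ak2, Stat2, Oas3, Ifit1, Ifit3, Rsad2, Bst2 and Trim30a. Another pattern that was searched, TTC, any 3 bases and GAA, was in 6 of the 28 (21.4%), against 9.55% of all genes. It is not marked in the sequences. A match is a description of letters and not a bound site, and the absence of a match says only that these letters are not in this window. Capitals mark the GAAA pattern or its reverse in the sequences, each printed 5′ to 3′ along its gene.
Ifit1, chr19:34640639-34640938, plus strand: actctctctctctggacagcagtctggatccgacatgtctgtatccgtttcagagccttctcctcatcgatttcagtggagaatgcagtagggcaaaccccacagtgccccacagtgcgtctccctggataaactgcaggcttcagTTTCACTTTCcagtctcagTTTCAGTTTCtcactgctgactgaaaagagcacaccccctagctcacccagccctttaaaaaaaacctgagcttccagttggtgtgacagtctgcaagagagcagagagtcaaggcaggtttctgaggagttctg
Ifit3, chr19:34583279-34583578, plus strand: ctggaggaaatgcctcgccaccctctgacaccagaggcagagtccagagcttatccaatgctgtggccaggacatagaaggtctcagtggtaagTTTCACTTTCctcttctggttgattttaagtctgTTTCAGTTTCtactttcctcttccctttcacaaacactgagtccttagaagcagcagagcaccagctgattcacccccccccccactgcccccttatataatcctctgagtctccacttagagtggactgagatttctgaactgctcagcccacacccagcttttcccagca
Oas3, chr5:120777610-120777909, minus strand: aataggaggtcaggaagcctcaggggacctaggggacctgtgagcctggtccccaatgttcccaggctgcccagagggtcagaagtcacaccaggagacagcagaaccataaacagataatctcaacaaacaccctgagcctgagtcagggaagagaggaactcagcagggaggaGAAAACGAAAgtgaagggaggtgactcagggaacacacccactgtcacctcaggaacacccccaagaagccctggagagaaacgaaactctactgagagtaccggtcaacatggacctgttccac
Rsad2, chr12:26456403-26456702, minus strand: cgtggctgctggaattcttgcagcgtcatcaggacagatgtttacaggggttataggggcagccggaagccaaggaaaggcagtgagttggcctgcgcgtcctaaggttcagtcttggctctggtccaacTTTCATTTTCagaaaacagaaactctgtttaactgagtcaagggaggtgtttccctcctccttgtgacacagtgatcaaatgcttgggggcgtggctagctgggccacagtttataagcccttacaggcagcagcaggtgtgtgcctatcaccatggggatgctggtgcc
Bst2, chr8:71537423-71537722, minus strand: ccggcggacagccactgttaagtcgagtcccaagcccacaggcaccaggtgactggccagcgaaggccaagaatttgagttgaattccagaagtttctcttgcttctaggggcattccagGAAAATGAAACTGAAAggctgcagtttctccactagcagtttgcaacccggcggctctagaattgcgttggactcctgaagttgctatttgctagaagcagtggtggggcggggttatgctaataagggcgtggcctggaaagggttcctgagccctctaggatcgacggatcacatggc
Irf7, chr7:141266375-141266674, minus strand: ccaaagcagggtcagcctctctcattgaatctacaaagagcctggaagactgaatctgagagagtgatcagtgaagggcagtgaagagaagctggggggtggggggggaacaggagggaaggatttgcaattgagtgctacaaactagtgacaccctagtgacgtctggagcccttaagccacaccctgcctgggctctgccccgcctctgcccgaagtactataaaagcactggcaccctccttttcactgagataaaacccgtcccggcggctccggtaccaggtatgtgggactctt
Ifit1 and Ifit3, antiviral genes of the same cluster on chromosome 19, each carry 2 separate matches, whose first bases lie at -104 and -85 from the start in Ifit1 and at -156 and -122 in Ifit3. Bst2 carries 2 that overlap, at -130 and -124, and Oas3 and Rsad2 carry 1 each, at -75 and -120. Irf7, the gene of the list with the largest mean response to bleomycin, has no match in this window and is shown for contrast. Over the list, the mean of the responses in both genotypes had a median of 1.14 (0.71 to 2.05) in the 10 genes with the GAAA pattern. It was 0.78 (0.19 to 2.70) in the 18 without it, and the 2 sets overlap over most of their range.

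Bleomycin raised most of these genes in both genotypes. In Fra-1-/- mice 30 of 38 genes were higher in KOT than in KOC by limma at an adjusted p under 0.05, against 7.42% of all clusters higher by the same rule, while 8 did not pass and 0 were lower (7.98% of all clusters were). In Fra-1+/+ mice 25 of 38 were higher in WTT than in WTC, against 10.2% of all clusters, while 13 did not pass and 0 were lower (11.3% of all clusters were). The median log2 fold change over the 38 genes was 1.17 in Fra-1-/- mice (0.24 to 2.70) and 1.03 in Fra-1+/+ mice (-0.04 to 2.71), and the median of all clusters was 0.02 in both. Every KOT mouse lay above every KOC mouse for 32 genes (18.8% of all clusters did so) and every WTT mouse above every WTC mouse for 31 (18.3% of all clusters). LPE, the test of the study on medians, which is described further on, called 34 genes higher in KOT than in KOC (4.45% of all clusters) and 24 higher in WTT than in WTC (3.45% of all clusters). Both genotypes passed for 24 genes, Fra-1-/- alone for 6 (Ifi35, Rsad2, Cmpk2, Parp9, Parp14 and Dtx3l), Fra-1+/+ alone for Trim25, and neither for 7 (Nmi, Sp100, Ifit2, Samhd1, Ifi44l, Tor3a and Helz2). Passing in 1 genotype and not in the other is no difference between them, and none of the 38 differences between the responses passed a test, as given further on. In whole lung, a higher level can come from more RNA per cell or from more cells that hold it, and these cannot be told apart. The count for KOT against KOC was 38 without KOT 80, 15 without KOT 72, 17 without KOT 81 and 19 without KOC 55. That for WTT against WTC was 31 without KOT 80 and 16 without WTT 164. The share of all clusters called was not computed for these refits, so whether the swings are particular to these genes was not tested. The 12 mice are few, and with 3 against 3 no exact test can reach a two-sided p under 0.1, so these calls rest on variances that limma shares over clusters.

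**Figure D1:**
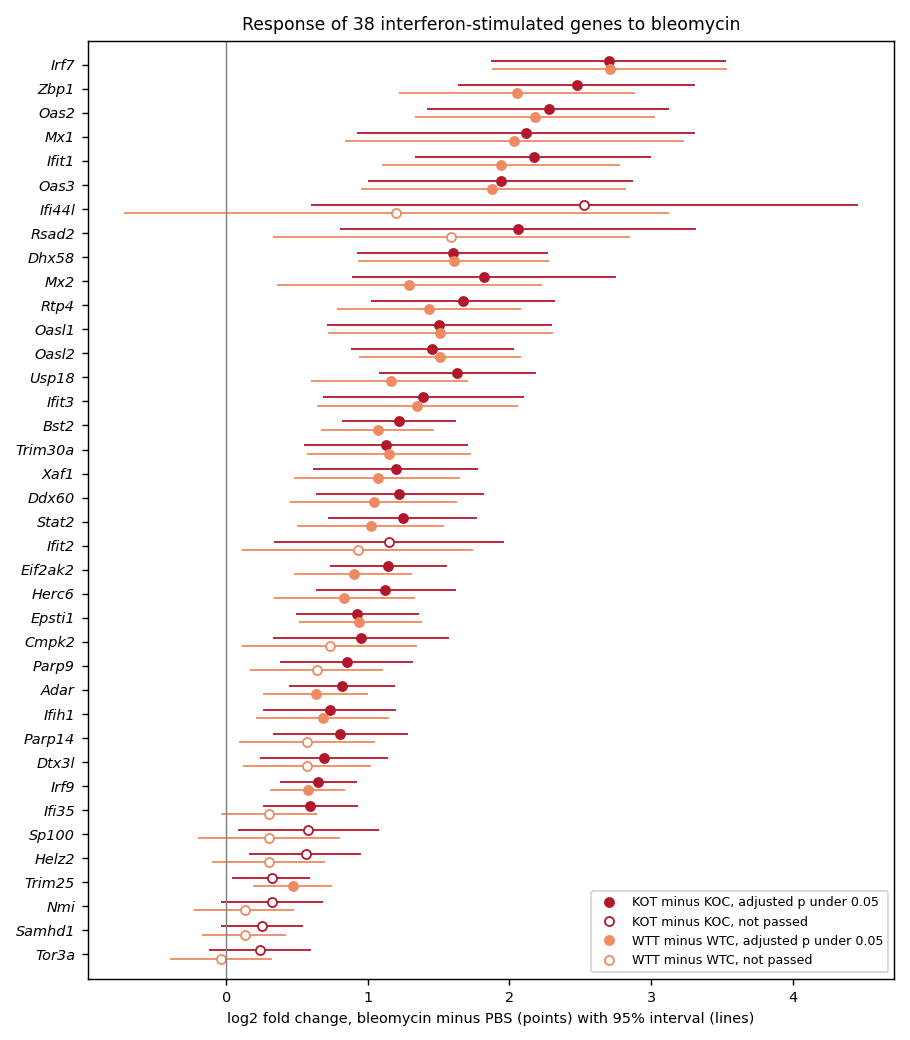
Log2 fold change of each of the 38 genes after bleomycin (x axis; points) with its 95% interval (lines), for KOT minus KOC and WTT minus WTC, filled where the adjusted p was under 0.05. Genes run from the largest mean response (Irf7, 2.70) to the smallest (Tor3a, 0.10), and the intervals of the 2 genotypes overlap for every gene.

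Sensors and editors of nucleic acid passed in both genotypes in 6 of 6 cases. Zbp1, which senses Z-form nucleic acid and can start necroptosis, lay at 10.65, 9.12 and 10.91 in KOT, at 9.87, 10.15 and 10.42 in WTT, at 7.40, 7.76 and 8.09 in KOC and at 8.41, 7.78 and 8.09 in WTC mice. Both bleomycin groups lay above both PBS groups without overlap, and KOT 80 at 9.12 was the lowest of the 6 bleomycin-treated mice. Zbp1 rose by 2.48 in Fra-1-/- mice (SE 0.38, 5.56-fold, adjusted p = 0.00191 by limma) and by 2.05 in Fra-1+/+ mice (SE 0.38, 4.15-fold, adjusted p = 0.00334). Dhx58, a helicase that modulates RNA sensing and is also called LGP2, rose by 1.60 and 1.61 (SE 0.31 each). Ddx60, a further helicase of this pathway, rose by 1.22 and 1.04 (SE 0.27 each), and Eif2ak2, the kinase PKR that halts translation on double-stranded RNA, by 1.14 and 0.90 (SE 0.19 each). The smallest rises were those of Ifih1, the RNA sensor MDA5, at 0.73 and 0.68 (SE 0.21 each), and of Adar, which edits adenosine in double-stranded RNA, at 0.82 and 0.63 (SE 0.17 each), in each case Fra-1-/- before Fra-1+/+ mice.

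Of 6 signalling proteins and transcription factors, 4 passed in Fra-1-/- and 3 in Fra-1+/+ mice. Irf7, the factor that amplifies interferon alpha production, lay at 11.73, 10.21 and 12.07 in KOT, at 11.15, 11.40 and 11.72 in WTT, at 8.50, 8.74 and 8.67 in KOC and at 9.0, 8.29 and 8.86 in WTC mice. The lowest bleomycin-treated mouse, KOT 80, was still above the highest PBS-treated mouse, WTC 76. The rise was the largest of the 38 genes in both genotypes, 2.70 in Fra-1-/- mice (SE 0.38, 6.5-fold, adjusted p = 0.00137 by limma) and 2.71 in Fra-1+/+ mice (SE 0.38, 6.53-fold, adjusted p = 8.5e-04). Stat2 and Irf9, subunits of ISGF3, rose less. Stat2 rose by 1.25 in Fra-1-/- mice (SE 0.24, adjusted p = 0.00551) and by 1.02 in Fra-1+/+ mice (SE 0.24, adjusted p = 0.0109), and Irf9 by 0.65 (SE 0.12, adjusted p = 0.00492) and 0.58 (SE 0.12, adjusted p = 0.0065). Ifi35, a partner of Nmi, lay at 9.78, 9.19 and 9.78 in KOT, at 9.32, 9.19 and 9.63 in WTT, at 8.97, 8.97 and 9.02 in KOC and at 9.04, 9.01 and 9.20 in WTC mice. KOT and KOC did not overlap, whereas WTT 161 lay just below WTC 158. Ifi35 rose by 0.59 in Fra-1-/- mice (SE 0.15, adjusted p = 0.023), and the 0.30 (SE 0.15, adjusted p = 0.199) of Fra-1+/+ mice did not pass. Sp100, a nuclear body protein, at 0.58 and 0.30 (SE 0.23 each), and Nmi, at 0.32 and 0.13 (SE 0.16 each), did not pass in Fra-1-/- or in Fra-1+/+ mice.

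All 4 OAS genes passed in both genotypes, with rises between 1.45 and 2.28. OAS proteins make 2′-5′-linked oligoadenylate, which activates RNase L, while the like proteins Oasl1 and Oasl2 differ in this activity. Oas2 lay at 10.16, 8.51 and 10.37 in KOT, at 9.55, 9.79 and 10.18 in WTT, at 7.06, 7.58 and 7.58 in KOC and at 7.93, 7.44 and 7.62 in WTC mice. The groups did not overlap between bleomycin and PBS, and KOT 80 alone stood more than 1 unit below the rest of the bleomycin-treated mice. The rise was 2.28 in Fra-1-/- mice (SE 0.39, 4.84-fold, adjusted p = 0.00311 by limma) and 2.18 in Fra-1+/+ mice (SE 0.39, 4.52-fold, adjusted p = 0.00279). Oas3, the neighbour of Oas2 on chromosome 5 with no coding gene between them, rose by 1.94 and 1.88 (SE 0.43 each), Oasl1 by 1.50 and 1.51 (SE 0.36 each) and Oasl2, its neighbour on the same chromosome, by 1.45 and 1.51 (SE 0.26 each). The first value of each pair is that of Fra-1-/- mice.

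The IFIT genes encode proteins that bind viral RNA and hold up its translation, and 2 of the 3 passed in both genotypes. Ifit1, whose promoter with 2 matches is printed above, lay at 10.89, 9.53 and 11.26 in KOT, at 10.24, 10.16 and 11.19 in WTT, at 8.16, 8.31 and 8.71 in KOC and at 8.52, 8.64 and 8.60 in WTC mice. Bleomycin and PBS groups did not overlap, with KOT 80 the lowest of the bleomycin-treated mice. Ifit1 rose by 2.17 in Fra-1-/- mice (SE 0.38, 4.49-fold, adjusted p = 0.00365 by limma) and by 1.94 in Fra-1+/+ mice (SE 0.38, 3.84-fold, adjusted p = 0.00463). Ifit3 rose by 1.39 and 1.35 (SE 0.32 each), with the reservation that Ifit3b, a near-identical gene that lies between Ifit3 and Ifit1, may share its probes. Ifit2, the direct neighbour of Ifit3, stood at 1.15 in Fra-1-/- mice (SE 0.37, adjusted p = 0.0585) and 0.93 in Fra-1+/+ mice (SE 0.37, adjusted p = 0.101), which did not pass.

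Among 6 antiviral effectors 5 passed in Fra-1-/- and 3 in Fra-1+/+ mice. Mx1, a dynamin-like GTPase that blocks influenza viruses and is defective in most inbred strains, lay at 8.64, 6.53 and 8.80 in KOT, at 7.67, 7.09 and 8.98 in WTT, at 5.79, 5.89 and 5.95 in KOC and at 5.96, 5.73 and 5.95 in WTC mice. PBS-treated mice lay within 0.23 of each other, while the KOT mice spanned 2.27 and the WTT mice 1.89. The rise was 2.12 in Fra-1-/- mice (SE 0.55, 4.33-fold, adjusted p = 0.0226 by limma) and 2.03 in Fra-1+/+ mice (SE 0.55, 4.1-fold, adjusted p = 0.0211). Mx2, its paralog, lay at 7.67, 5.69 and 7.56 in KOT, at 6.48, 6.14 and 7.18 in WTT, at 5.22, 5.13 and 5.11 in KOC and at 5.46, 5.17 and 5.28 in WTC mice. KOT 80 again lay closer to the PBS-treated mice than to the other KOT mice, although without overlap. Mx2 rose by 1.82 in Fra-1-/- mice (SE 0.43, adjusted p = 0.0142) and by 1.29 in Fra-1+/+ mice (SE 0.43, adjusted p = 0.0497), a call at the threshold that was lost under 14 of 22 alternatives, 9 of which left out a mouse.

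Rsad2, or viperin, which makes a nucleotide that ends viral RNA chains, lay at 9.67, 7.96 and 10.24 in KOT, at 8.33, 8.85 and 10.31 in WTT, at 7.32, 7.43 and 6.94 in KOC and at 6.91, 7.87 and 7.95 in WTC mice. KOT 80, at 7.96, stood level with the highest WTC mouse. Rsad2 rose by 2.06 in Fra-1-/- mice (SE 0.58, 4.16-fold, adjusted p = 0.0327 by limma), and the 1.59 (SE 0.58, 3-fold, adjusted p = 0.0729) of Fra-1+/+ mice did not pass although WTT and WTC did not overlap. Cmpk2, a nucleotide kinase that lies next to Rsad2 on chromosome 12, showed the same calls, with 0.95 in Fra-1-/- mice (SE 0.28, adjusted p = 0.0422) and 0.73 in Fra-1+/+ mice (SE 0.28, adjusted p = 0.0905). Bst2, or tetherin, which holds budding virus at the cell surface, lay at 9.98, 9.15 and 10.07 in KOT, at 9.87, 9.78 and 9.82 in WTT, at 8.42, 8.58 and 8.54 in KOC and at 8.78, 8.73 and 8.75 in WTC mice. WTT mice differed by no more than 0.09 in this gene, the narrowest of the list in that group, and Bst2 was the only gene in which WTT 164 was not the highest WTT mouse. It rose by 1.22 in Fra-1-/- mice (SE 0.18, adjusted p = 0.00172) and by 1.07 in Fra-1+/+ mice (SE 0.18, adjusted p = 0.0023). Samhd1, which depletes the nucleotides that viruses need for DNA, stood at 0.25 (SE 0.13) and 0.13 (SE 0.13) and did not pass in either genotype.

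**Figure D2:**
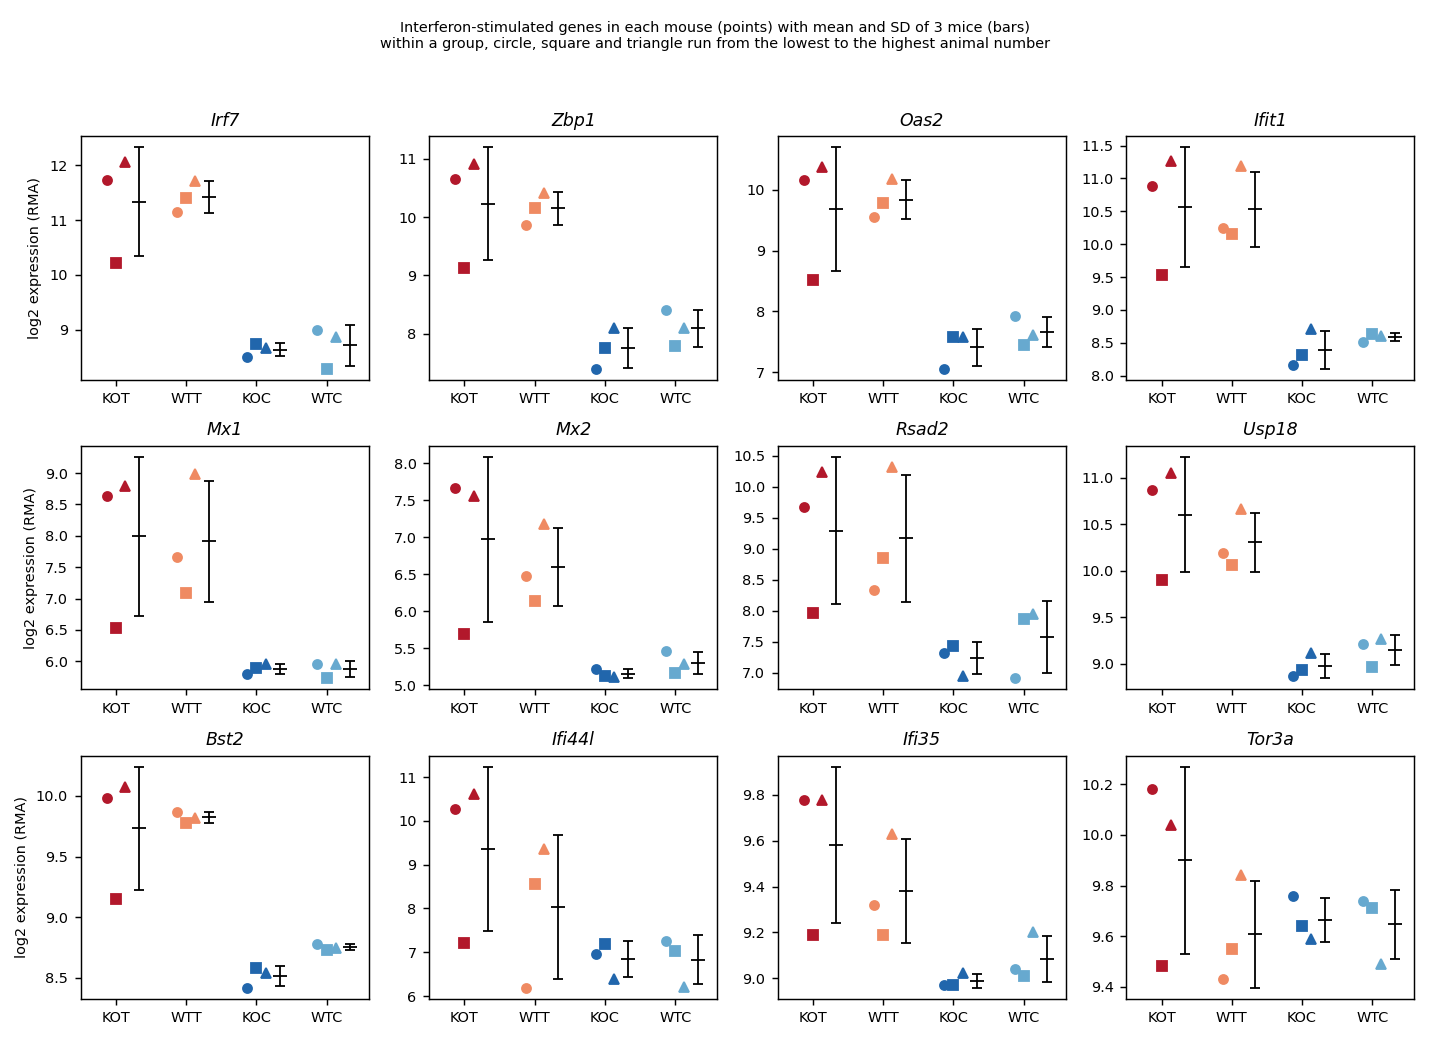
Log2 expression (y axis, its range set for each gene) of 12 of the genes in each mouse (points) of KOT, WTT, KOC and WTC, with bars for mean and SD (n = 3); within a group, circle, square and triangle run from the lowest to the highest animal number. The red square, KOT 80, is the lowest KOT mouse in each panel and reaches the level of PBS-treated mice in Rsad2, Ifi44l, Ifi35 and Tor3a.

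Isg15 is a ubiquitin-like protein that is attached to other proteins, and 7 enzymes of this pathway, of antiviral ubiquitin ligation and of ADP-ribosylation were measured, of which 6 passed in Fra-1-/- and 4 in Fra-1+/+ mice. Usp18, which removes Isg15 and restrains signalling at Ifnar2, lay at 10.87, 9.90 and 11.05 in KOT, at 10.19, 10.06 and 10.67 in WTT, at 8.87, 8.94 and 9.12 in KOC and at 9.22, 8.97 and 9.27 in WTC mice. Bleomycin and PBS groups did not overlap. Usp18 rose by 1.63 in Fra-1-/- mice (SE 0.25, 3.1-fold, adjusted p = 0.00205 by limma) and by 1.16 in Fra-1+/+ mice (SE 0.25, 2.23-fold, adjusted p = 0.00798). Herc6, the main ligase that attaches Isg15 in the mouse, rose by 1.12 and 0.83 (SE 0.23 each), and Trim30a, a TRIM-family protein, by 1.13 and 1.15 (SE 0.26 each), Fra-1-/- before Fra-1+/+ mice. Parp14, Dtx3l and Parp9 lie side by side on chromosome 16, and Dtx3l and Parp9 act as a complex. All 3 passed in Fra-1-/- mice, at 0.80 (SE 0.22), 0.69 (SE 0.21) and 0.85 (SE 0.21), and not in Fra-1+/+ mice, at 0.57 (SE 0.22), 0.57 (SE 0.21) and 0.64 (SE 0.21), with adjusted p of 0.0909, 0.0702 and 0.0531. Trim25, the ligase that aids the RNA sensor RIG-I, was the only gene that passed in Fra-1+/+ mice alone, at 0.47 (SE 0.13, adjusted p = 0.0222) beside 0.32 in Fra-1-/- mice (SE 0.13, adjusted p = 0.125).

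Of the other 6 genes, 3 passed in both genotypes, namely Rtp4 at 1.67 and 1.43 (SE 0.30 each), Xaf1, a factor that promotes cell death, at 1.20 and 1.07 (SE 0.27 each) and Epsti1 at 0.92 and 0.94 (SE 0.20 each), Fra-1-/- before Fra-1+/+ mice. Ifi44l had the most uneven values of the list, at 10.28, 7.21 and 10.61 in KOT, at 6.19, 8.55 and 9.36 in WTT, at 6.95, 7.18 and 6.39 in KOC and at 7.25, 7.04 and 6.21 in WTC mice. KOT 80 and WTT 160 lay at the level of the PBS-treated mice, and the other 4 bleomycin-treated mice lay above all of them. The log2 fold changes of 2.53 in Fra-1-/- mice (SE 0.88, 95% interval 0.60 to 4.46, adjusted p = 0.0768 by limma) and 1.20 in Fra-1+/+ mice (SE 0.88, 95% interval -0.72 to 3.13, adjusted p = 0.383) did not pass. Tor3a, an ATPase of the endoplasmic reticulum, had the smallest mean response, with 10.18, 9.48 and 10.04 in KOT, 9.43, 9.55 and 9.84 in WTT, 9.76, 9.64 and 9.59 in KOC and 9.74, 9.71 and 9.49 in WTC mice. All 4 groups overlapped, and the changes of 0.24 in Fra-1-/- mice (SE 0.16) and -0.04 in Fra-1+/+ mice (SE 0.16) did not pass. Helz2, a helicase and transcriptional coactivator, lay at 10.12, 9.53 and 10.18 in KOT, at 9.72, 9.60 and 10.17 in WTT, at 9.33, 9.32 and 9.52 in KOC and at 9.72, 9.38 and 9.49 in WTC mice. WTT and WTC overlapped while KOT and KOC did not, and neither 0.56 in Fra-1-/- mice (SE 0.18, adjusted p = 0.0617) nor 0.30 in Fra-1+/+ mice (SE 0.18, adjusted p = 0.285) passed.

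Mice that received bleomycin differed more from each other within a group in these genes than over all clusters. The median range between the 3 mice of a group was 1.16 over the 38 genes in KOT, against 0.20 over all clusters, and 0.58 in WTT, against 0.24. With PBS it was 0.18 in KOC, against 0.19 over all clusters, and 0.29 in WTC, against 0.20. After bleomycin, the lowest and highest KOT mouse and the highest WTT mouse were shared by nearly the whole list. KOT 80 was the lowest KOT mouse in 38 of 38 genes (in 32.3% of all clusters, and in 65.3% of those that rose in KOT against KOC), and KOT 81 was the highest in 34 of 38 (31.1% of all clusters and 55.6% of those that rose), the exceptions being Ifi35, Oasl2, Mx2 and Tor3a. WTT 164 was the highest WTT mouse in 37 of 38 genes (26.4% of all clusters, and 46.3% of those that rose in KOT against KOC). The lowest WTT mouse was WTT 160 in 21 genes (55.3%), against 29.9% of all clusters and 56.2% of those that rose in KOT against KOC. In the other 17 (44.7%) it was WTT 161, against 31.6% and 22.1%. With PBS the order was shared by fewer genes. WTC 76 was the highest WTC mouse in 22 (57.9%), against 34.5% of all clusters and 55.8% of those that rose in KOT against KOC. WTC 157 was the lowest in 25 (65.8%), against 31.6% and 58.2%. KOC 67 was the highest KOC mouse in 21 (55.3%), against 33.9% of all clusters and 50.3% of those that rose. KOC 53 was the lowest in 20 (52.6%), against 28.5% and 36.8%. The places of WTT 160, WTC 76, WTC 157 and KOC 67 were thus near those in the clusters that rose, and not particular to these genes. The mean level of the 38 genes was 9.88 in KOT 72, 8.82 in KOT 80 and 10.12 in KOT 81, against 9.24, 9.31 and 9.89 in the WTT mice, 8.29 to 8.39 in KOC and 8.35 to 8.49 in WTC mice. KOT 80 therefore lay between the PBS-treated mice and the other 5 bleomycin-treated mice. In this mean, KOT 72 and KOT 81 lay closer to each other than to KOT 80. Likewise, WTT 160 and WTT 161 lay closer to each other than to WTT 164. The wide ranges after bleomycin thus rest largely on KOT 80 and WTT 164, and the median range without these mice was not computed.

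**Figure D3:**
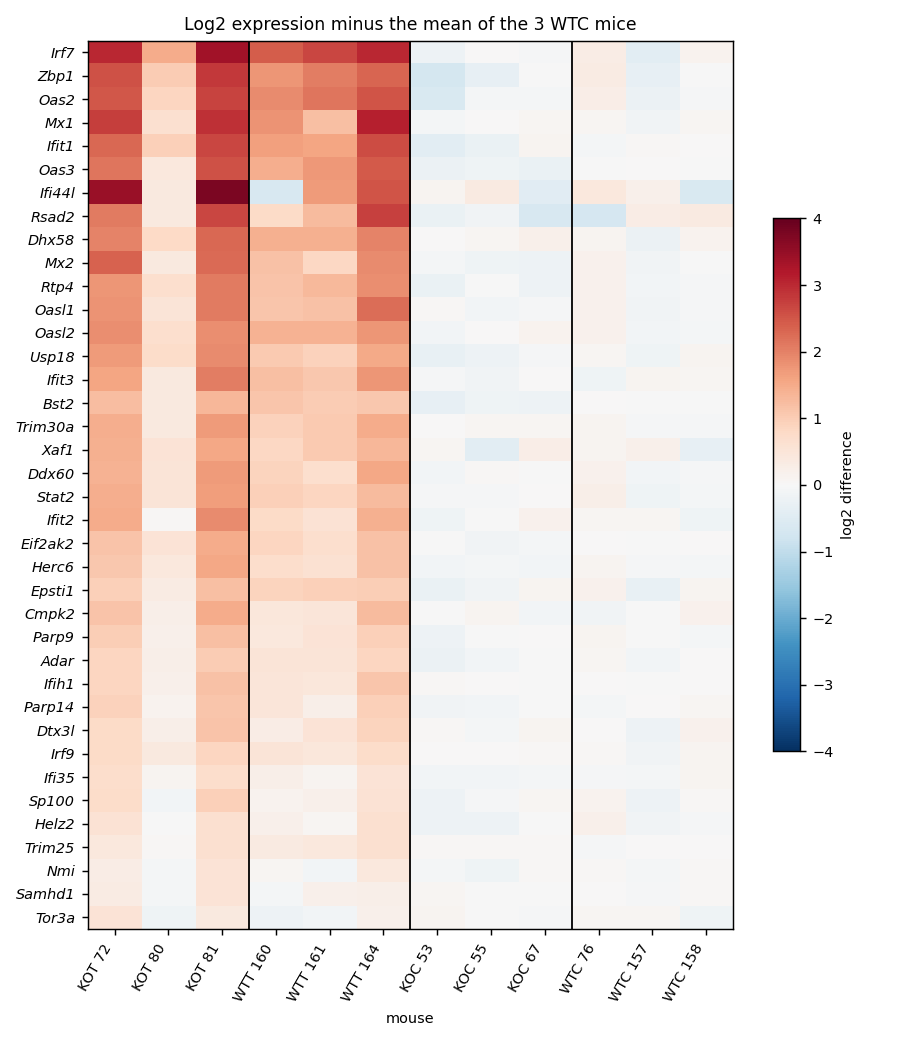
Log2 expression of the 38 genes (rows, from the largest mean response to the smallest) in each of the 12 mice (columns, KOT, WTT, KOC and WTC) minus the mean of the 3 WTC mice, with red for higher and blue for lower. The column of KOT 80 is lower than those of KOT 72 and KOT 81 in every row, and WTT 164 is the strongest WTT column in 37 of 38 rows.

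Some lists of markers of other cell types followed the order of the same mice, and others did not. The 6 measured markers of monocytes and macrophages all passed as higher in both genotypes. They averaged 9.44 to 9.92 in KOT, 9.54 to 9.95 in WTT, 8.55 to 8.73 in KOC and 8.51 to 8.74 in WTC mice. KOT 80 was the lowest KOT mouse in this mean, at 9.44, and in Csf1r, Ccr2, Cd68 and Fcgr1. The gap was widest in Fcgr1, at 8.30 against 9.71 in KOT 72 and 10.18 in KOT 81. In Mrc1 KOT 80 was the highest KOT mouse, and in Marco it lay above KOT 72. The 5 neutrophil markers averaged 9.44, 8.22 and 9.85 in KOT 72, KOT 80 and KOT 81, 8.90, 10.18 and 11.44 in WTT 160, WTT 161 and WTT 164, and 8.69 to 9.17 in PBS-treated mice, with 0 of 5 past the test in either genotype. The 5 alveolar type 1 markers ran the other way after bleomycin, with 3 of 5 lower in each genotype. They averaged 10.53, 11.02 and 10.66 in KOT 72, KOT 80 and KOT 81. In WTT 160, WTT 161 and WTT 164 they averaged 10.83, 10.51 and 10.55, so WTT 164 was at neither end. They lay between 11.40 and 11.44 in KOC and between 11.36 and 11.58 in WTC mice. KOT 81 and not KOT 80 was the lowest KOT mouse in T cell (7.96 against 8.02), NK cell (6.67 against 6.77) and B cell markers (9.19 against 9.24). Among 4 measured markers of plasmacytoid dendritic cells, a main source of interferon alpha, values ran in both directions. Siglech and Ccr9 passed in Fra-1-/- mice, at 0.75 (SE 0.23, adjusted p = 0.049 by limma) and 1.07 (adjusted p = 0.0124), and stood at 0.57 and 0.73 in Fra-1+/+ mice (adjusted p = 0.105 and 0.0523). Cox6a2 stood at -0.58 in Fra-1-/- mice (adjusted p = 0.0776) and was lower in Fra-1+/+ mice, at -0.84 (adjusted p = 0.0129), while Tcf4 stood at -0.09 and 0.04 and did not pass. The part of these cells in the levels of the interferon-stimulated genes was not tested.

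Fra-1 made no difference to these genes that passed the test, with either treatment. Between KOT and WTT 0 of 38 genes passed by limma, against 0.0427% of all clusters, and 0 had an unadjusted p under 0.05, against 10.6% of all clusters. The median log2 difference was 0.11 (-0.18 to 1.33), beside -0.01 over all clusters, with 29 genes above 0 and 9 below (45.8% of all clusters were above 0), and in none of the 38 did every KOT mouse lie above every WTT mouse (6.92% of all clusters did) or below (8.8%). The smallest p in this comparison were those of Tor3a, at 0.29 (95% interval -0.07 to 0.65, adjusted p = 0.565), Ifi44l at 1.33 (-0.59 to 3.26, adjusted p = 0.62), Ifi35 at 0.20 (-0.13 to 0.54, adjusted p = 0.674) and Usp18 at 0.30 (-0.26 to 0.85, adjusted p = 0.716). Among the genes that responded most, Irf7 differed by -0.09 (-0.92 to 0.74), Oas2 by -0.16 (-1.01 to 0.70), Ifit1 by 0.03 (-0.81 to 0.86) and Zbp1 by 0.08 (-0.75 to 0.91). These intervals leave room for a change of about 1 unit in either direction in such genes, and for more in Mx1 (0.08, -1.12 to 1.27) and Rsad2 (0.13, -1.13 to 1.39). The median difference over the list was 0.46 without KOT 80 and -0.09 without KOT 81, with 0 genes past the test either way, and the sign turned in 20 of 38 genes without KOT 81. With a term for animal numbers below and above 100 it was 0.01, the sign turned in 12 genes, and 0 passed.

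The local-pooled-error test (LPE), which the study's methods name and which compares medians with an error pooled over genes of like intensity, called 4 genes higher in KOT than in WTT (0.555% of all clusters were so called). These were Ifi44l, by 1.73 (adjusted p = 2.5e-15), Mx2 by 1.08 (adjusted p = 1.6e-05), Mx1 by 0.97 (adjusted p = 1.8e-04) and Rsad2 by 0.82 (adjusted p = 0.00539), as differences between the medians of 3 mice. In these genes the mean difference was 1.33, 0.38, 0.08 and 0.13, in the same order. The median passes over KOT 80, whose 4 values were the lowest of their group, and over WTT 164, whose 4 values were the highest, and the KOT and WTT mice overlapped in each gene.

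With PBS 0 of 38 genes differed between KOC and WTC by limma, against 0.0128% of all clusters, 0 had an unadjusted p under 0.05 (9.82% of all clusters did) and 0 were called by LPE (0.346% of all clusters were called higher and 1.44% lower). The median was -0.05 (-0.34 to 0.10), beside -0.01 over all clusters, and -0.15 with the term for animal number, which turned the sign of 9 genes. KOC mice lay above all WTC mice in 1 gene, Trim25 (6.88% of all clusters), and below them in 3, Oas3, Bst2 and Herc6 (9.37% of all clusters). The smallest p were those of Bst2, at -0.24 (95% interval -0.64 to 0.16, adjusted p = 0.727), Zbp1 at -0.34 (-1.17 to 0.49, adjusted p = 0.841), Helz2 at -0.14 (-0.54 to 0.26, adjusted p = 0.867) and Usp18 at -0.18 (-0.73 to 0.38, adjusted p = 0.882). The response to bleomycin, KOT minus KOC, exceeded WTT minus WTC by a median of 0.19 (-0.15 to 1.33), beside -0.01 over all clusters, with 31 of 38 genes above 0 (48.6% of all clusters). This direction rested on KOT 81, as the median was -0.03 without this mouse, which turned the sign of 17 of 38 genes. Without KOT 80 the median was 0.51. None of the 38 differences between responses passed, against 0% of all clusters, none had an unadjusted p under 0.05 (5.1% of all clusters did), and the smallest adjusted p was 0.983. Irf7, for example, differed in its response by -0.01 (-1.18 to 1.17), Usp18 by 0.48 (-0.31 to 1.26) and Ifi44l by 1.33 (-1.40 to 4.05). The KOT and WTT mice entered both this comparison and those above, so the results are not separate evidence.

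**Figure D4:**
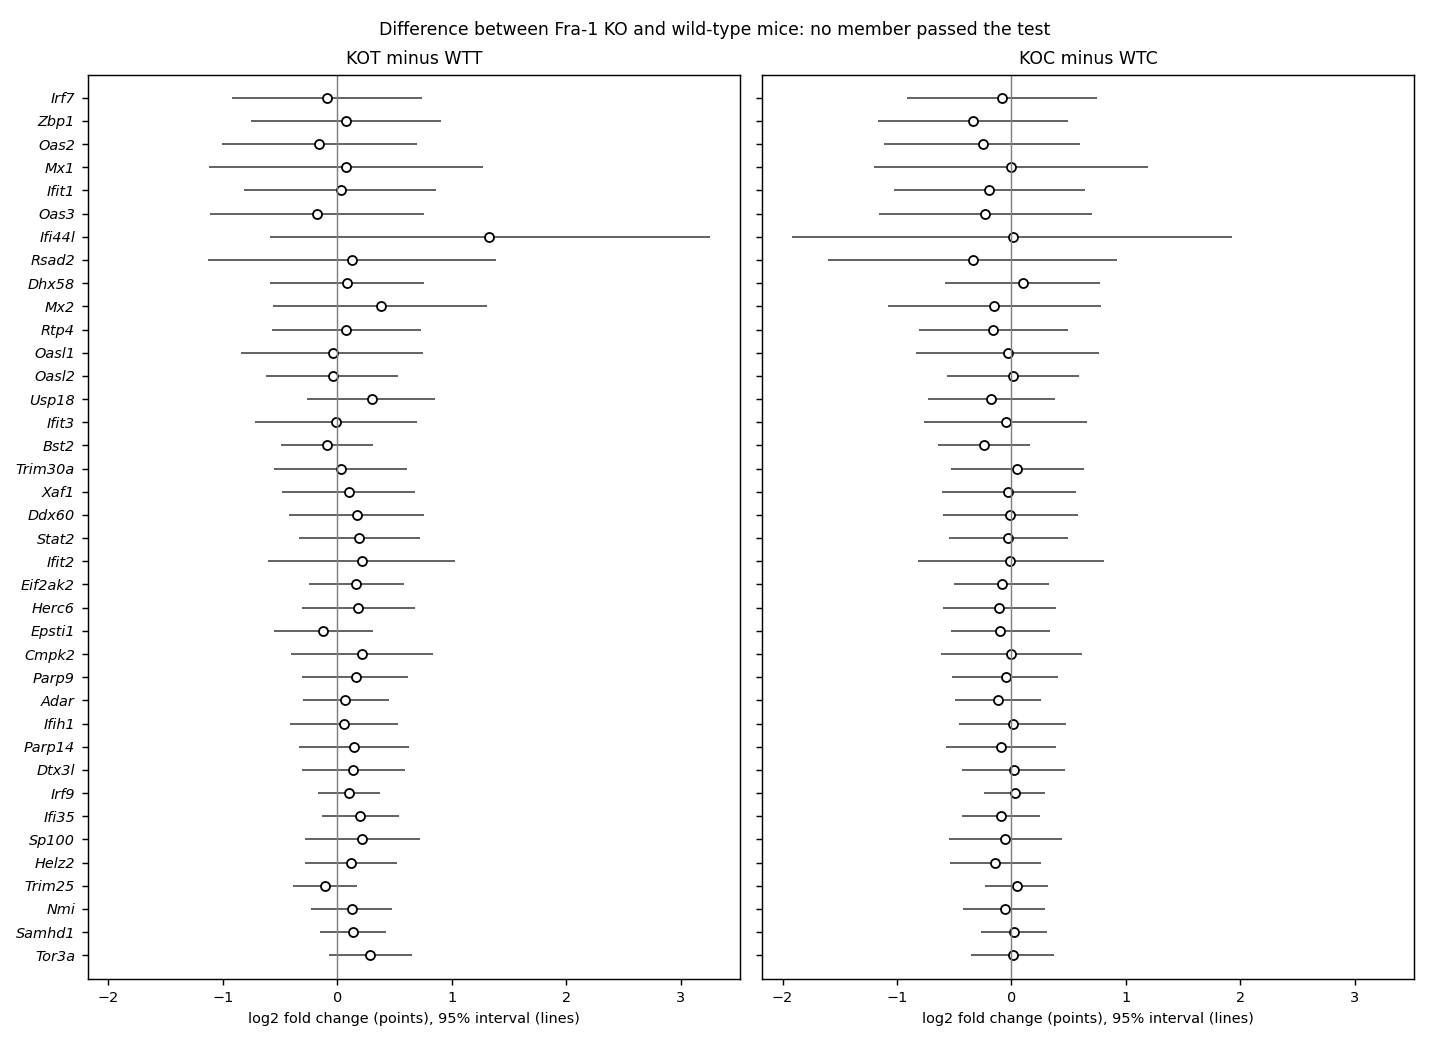
Log2 difference between genotypes for each of the 38 genes (points) with its 95% interval (lines), KOT minus WTT on the left and KOC minus WTC on the right, on the same x axis. Every interval crosses 0, and the widest is that of Ifi44l, -0.59 to 3.26 for KOT minus WTT.

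The rest of the pathway was read from lists of ligands, receptors, signalling proteins, sensors and further target genes. Of 14 measured genes for type I interferons, 0 passed in any comparison. Their mean level lay between 5.64 and 5.93 in every mouse, below the array medians of 7.14 to 7.22. Detection above background was not assessed, so flat values at this level do not show that these genes were unchanged. Ifnb1, interferon beta, lay at 5.03, 4.94 and 4.94 in KOT, 5.02, 5.15 and 5.16 in WTT, 4.84, 5.10 and 5.02 in KOC and 5.22, 5.07 and 5.14 in WTC mice, a change with bleomycin of -0.02 in Fra-1-/- mice (95% interval -0.20 to 0.16) and -0.04 in Fra-1+/+ mice (-0.22 to 0.14). The interferon alpha genes are close copies of each other, so their probes may share signal. At an unadjusted p under 0.05, which no gene kept after adjustment, Ifna4 and Ifna5 were lower in Fra-1-/- mice with both treatments, by -0.23 and -0.27 in KOT against WTT (adjusted p = 0.407 and 0.342) and by -0.26 and -0.25 in KOC against WTC (adjusted p = 0.437 and 0.439). Ifna9 and Ifnz were so only in KOT against WTT and Ifna2 and Ifne only in KOC against WTC, and whether the comparisons differ was not tested. By this rule 4 of 14 were lower in each comparison. Of all 23410 clusters, 1480 were lower in KOT against WTT and 1611 in KOC against WTC. Ifng, interferon gamma, lay at 6.44, 6.71 and 6.73 in KOT, 6.39, 6.64 and 6.39 in WTT, 6.35, 6.40 and 6.23 in KOC and 6.41, 6.09 and 6.63 in WTC mice, and its changes of 0.30 in Fra-1-/- mice (SE 0.13, adjusted p = 0.162) and 0.09 in Fra-1+/+ mice (SE 0.13, adjusted p = 0.682) did not pass.

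Of 6 receptor chains 2 passed in both genotypes. Ifnar1, the first chain of the type I receptor, lay at 9.97, 9.82 and 10.03 in KOT, 9.87, 9.84 and 10.00 in WTT, 9.50, 9.64 and 9.55 in KOC and 9.70, 9.46 and 9.44 in WTC mice. KOT 80, at 9.82, was the lowest KOT mouse in this gene as well, and the lowest of all bleomycin-treated mice. Ifnar1 rose by 0.38 in Fra-1-/- mice (SE 0.09, adjusted p = 0.0164 by limma) and by 0.37 in Fra-1+/+ mice (SE 0.09, adjusted p = 0.0134), and Ifngr2, of the interferon gamma receptor, by 0.31 and 0.36 (SE 0.07 each). Ifnar2, the second chain, did not pass, at 0.19 in Fra-1-/- mice (SE 0.08, adjusted p = 0.144) and at 0.22 in Fra-1+/+ mice (SE 0.08, adjusted p = 0.0781). Among 10 kinases, transcription factors and inhibitors 6 passed in Fra-1-/- and 4 in Fra-1+/+ mice, with Socs3, an inhibitor of cytokine signalling, at 1.57 and 1.81 (SE 0.22 each) Jak2, a kinase of the interferon gamma receptor, at 0.49 and 0.59 (SE 0.12 each), Socs1, a further inhibitor, at 0.60 and 0.68 (SE 0.16 each) and Irf5, a factor downstream of Toll-like receptors, at 0.92 and 0.89 (SE 0.21 each) among them. Irf1, a factor induced by interferon gamma, passed in Fra-1-/- mice at 0.45 (SE 0.13, adjusted p = 0.0394) and stood at 0.00 in Fra-1+/+ mice (SE 0.13).

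Of 12 further sensors and adaptors 7 passed in each genotype, among them Sting1, the adaptor of cytosolic DNA sensing, at 1.03 in Fra-1-/- and 1.10 in Fra-1+/+ mice (SE 0.21 each), Myd88, an adaptor of Toll-like receptors, at 0.81 and 0.80 (SE 0.17 each) and Ikbke, a kinase of the same pathways, at 0.66 and 0.77 (SE 0.17 each). Tlr9, a receptor for DNA in endosomes, had the largest rise of these 12 in Fra-1-/- mice, at 1.25 (SE 0.28, adjusted p = 0.0127), and its 0.83 in Fra-1+/+ mice (SE 0.28, adjusted p = 0.0595) did not pass. Of 19 further interferon-stimulated genes, 8 passed in each genotype and none was lower. Ifi27l2a rose by 1.92 in Fra-1-/- and 1.87 in Fra-1+/+ mice (SE 0.28 each), Lgals3bp, a secreted glycoprotein, by 1.37 and 1.21 (SE 0.18 each), Oas1a by 1.38 and 1.17 (SE 0.22 each), where Oas1a has many near copies whose signal it may share, and Trafd1, which restrains Toll-like receptor signalling, by 0.79 and 0.55 (SE 0.15 each). Slfn8, of the Schlafen family, had the largest rise of the 19 in Fra-1-/- mice, at 2.04 (SE 0.41, adjusted p = 0.00661), beside 1.68 in Fra-1+/+ mice (SE 0.41, adjusted p = 0.0131). Over these 19 genes the median was 0.44 in Fra-1-/- and 0.36 in Fra-1+/+ mice, beside 1.17 and 1.03 in the 38 genes above. None of the genes in these lists passed in a comparison between genotypes.

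**Figure D5:**
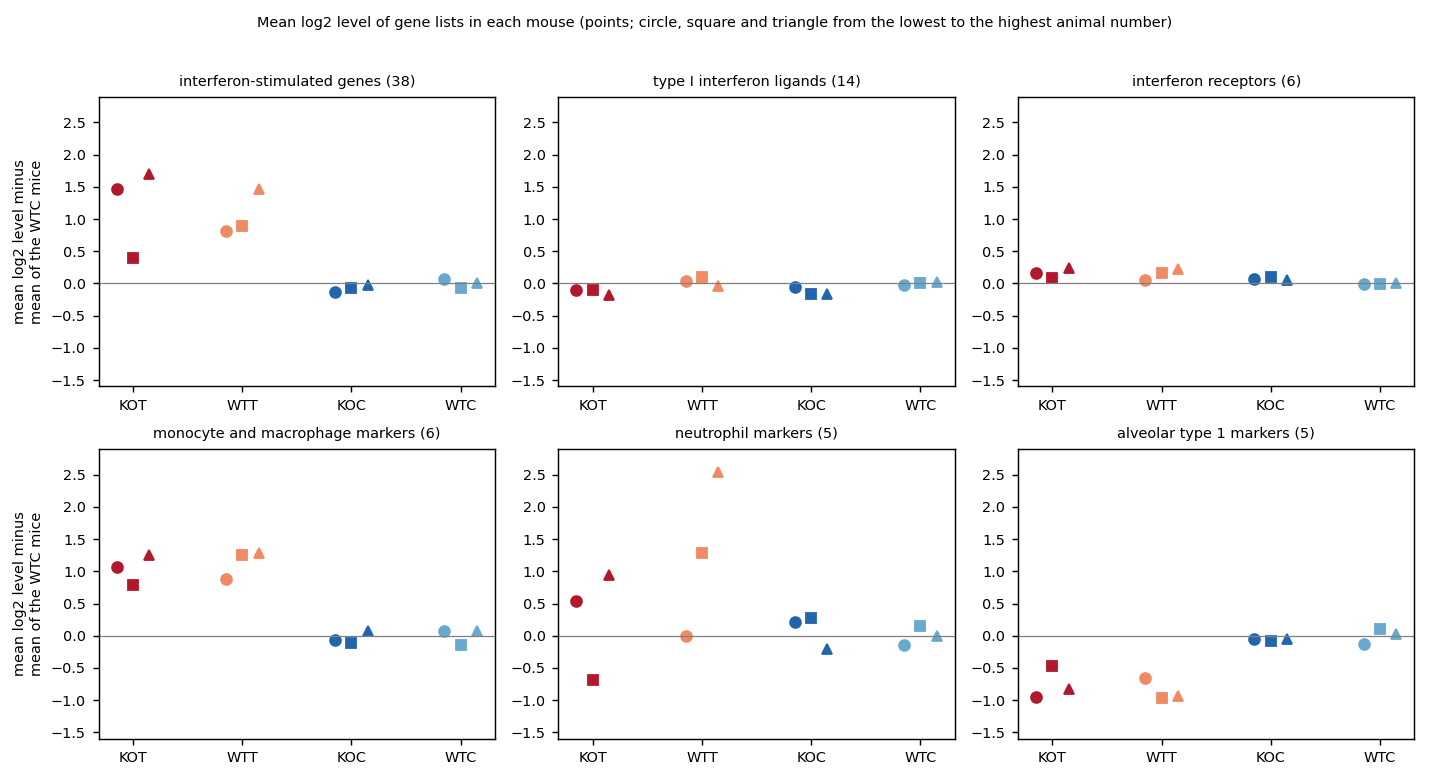
Mean log2 level of 6 gene lists in each mouse (points) minus the mean of the 3 WTC mice (y axis), by group, with circle, square and triangle from the lowest to the highest animal number in a group. The 38 interferon-stimulated genes are higher in all bleomycin-treated mice. The 14 type I interferon genes stay near 0, at a low mean level (5.64 to 5.93) for which detection was not assessed. The square of KOT 80 is also the lowest KOT point in the monocyte and macrophage and the neutrophil panels and the highest in the alveolar type 1 panel.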

How the data were processed

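The data are 1 array for the left lung of each of 12 mice, with 3 mice in each of 4 groups taken from the labels. Per the methods of the study, the authors quantile-normalized the probe intensities over all arrays, summarized each transcript cluster by RMA with Affymetrix Power Tools (version not given in the sources used here), and deposited log2 values. No further normalization was applied. The study filtered on detection above background, which was not done here.

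Clusters were named by the platform annotation, in which 21789 clusters carried 1 symbol, 725 carried 2 and 896 carried 3 or more, and the remaining 12146 carried none. A linear model with 1 mean for each group was fitted to 12 arrays and 23410 clusters with a symbol in limma 3.58.1 (statmod 1.5.0, R 4.3.3), with 8 residual degrees of freedom. A gene passed at a two-sided Benjamini-Hochberg adjusted p under 0.05 over all of these clusters. As 1 variance is shared by the groups, a mouse that stands apart also widens the errors of comparisons it is not in. Intervals are 95% intervals of the model. LPE was rewritten in R with 100 intensity bins, an adjusted p under 0.01 and a spline of 10 degrees of freedom. The script was tested on simulated data.

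The genes and lists were chosen with earlier results of these data known, so counts over the list are descriptions. By rule, values of every mouse are given for the gene with the largest mean response in each role, the smallest response of the list, genes that the rule took from the tables of the study (Mx1, Mx2 and Rsad2; Ifi44l stands there under an older symbol) and the 4 smallest p in each comparison of genotypes. Pathway genes were named where they passed after bleomycin, up to 4 in a list, beside Ifnb1, Ifng, Ifnar1 and Ifnar2. A further pathway gene is not reported here. Ifna, Irf1, Slfn8 and the genes named in the mouse order were named after their values were seen. Nothing in the labels says more than that samples are separate mice, and labelled ages (2 months) and those of the methods differ. The genome build of the array annotation is not given in the sources used here, so coordinates are those of RefSeq promoters only. Alternatives were other tests, moderation, weights, normalizations, sets of clusters and thresholds, a term for animal number, and leaving out each mouse.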

Additional observations from a re-analysis of the deposited data

How the results depend on the processing

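No paired analysis was possible because the groups share no animal number. At an adjusted p under 0.01 by limma, 15 of the 38 genes were higher in KOT than in KOC and 13 in WTT than in WTC, in place of 30 and 25, and LPE called 4 higher in KOT than in WTT, in place of 0. Leaving out 1 mouse at a time, the count lay between 15 (without KOT 72) and 38 (without KOT 80) for KOT against KOC, with 17 without KOT 81 and 19 without KOC 55, and between 16 (without WTT 164) and 31 (without KOT 80) for WTT against WTC. The counts of 0 for KOT against WTT, for KOC against WTC and for the difference between responses were 0 without any 1 mouse. The share of all clusters called was not computed without single mice or at an adjusted p under 0.01. The median over the list lay between 0.95 and 1.52 for KOT against KOC, 0.85 and 1.10 for WTT against WTC, -0.09 and 0.46 for KOT against WTT, -0.10 and 0.00 for KOC against WTC, and -0.03 and 0.51 for the difference between responses. Tor3a, uncalled at -0.04 in WTT against WTC, turned to 0.01 with a term for animal numbers below and above 100, to 0.01 without WTC 76 and to 0.05 without WTT 160, and lay at -0.16 without WTT 164. Over the genes given for every mouse in the bleomycin comparisons and the 4 of smallest p in the others, 769 of 828 values kept their direction and side of the threshold, 39 lost and 17 gained the call, and 3 (those of Tor3a) changed sign. Over all 38 genes, no called value changed sign, while uncalled ones did in up to 20 genes for KOT against WTT and 17 for the difference between responses (both without KOT 81), 10 for KOC against WTC (cyclic loess) and 1 for WTT against WTC. Every alternative kept 15 of the 30 calls of KOT against KOC and 12 of the 25 of WTT against WTC; Mx2 and Ifih1 in WTT against WTC and Cmpk2, Ifih1 and Dtx3l in KOT against KOC were lost under 12 to 14 of 22. Causes were not tested. A cluster of lower mean could not be tried, as no gene had several, and LPE and a fit of 6 arrays were not run for the difference between responses. With 3 mice a group the intervals of the most variable genes span more than 2 units, so differences between genotypes of about 2-fold in them could not be detected.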
